A study of Sus scrofa with 17 samples.

Results

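Glycolysis, pyruvate oxidation and the tricarboxylic acid (TCA) cycle were followed through 38 genes chosen by symbol, from the glucose transporters to mitochondrial malate dehydrogenase. All 38 had a row in the deposited count table, and all 38 passed the filter on low counts that left 15884 of 35670 genes for testing. By role the members were 2 glucose transporters, 7 enzymes from hexokinase to aldolase, 8 enzymes from triose phosphate to pyruvate, 3 lactate dehydrogenases, 5 proteins of the pyruvate dehydrogenase complex and 13 proteins of the TCA cycle. Their counts were measured in heart muscle of the right ventricle from 17 pigs (Sus scrofa) with pressure overload of that chamber. Mononuclear cells from umbilical cord blood had been given repeatedly to 7 of them (multidose) and once to 5 (single dose), and 5 had received vehicle without cells (vehicle control). Pressure overload was common to all groups, controls included, and the cells were injected into the heart muscle. Each library came from 1 animal, and p-values therefore reflect spread between animals. The labels do not give cell numbers, times of harvest, breed, age or sex for each animal, and differences in these among the groups cannot be told apart from dosing.

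Cells take up glucose through transporters of the SLC2A family, split it to pyruvate in the cytosol, and either reduce the pyruvate to lactate or import it into mitochondria. There the pyruvate dehydrogenase complex converts it to acetyl-CoA, which the TCA cycle oxidises. Adult heart muscle draws most of its energy from fatty acids and also oxidises lactate, and several steps are served by isoforms typical of muscle (PFKM, PGAM2, ENO3) beside isoforms typical of other tissues (PFKL, PFKP, PGAM1, ENO1). Lactate dehydrogenase is a tetramer of LDHA and LDHB subunits, and LDHB is the subunit typical of heart.

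Library totals ranged from 21754800 to 61144663 counts. Of the 17 libraries, 5 carry names beginning with M1 (multidose 1 to 4 and single dose 1) and 12 carry names beginning with M8 or M9, among them all 5 controls. The labels do not say what these names stand for. Of the M1 libraries, 4 had fewer than 25000000 counts, while multidose 4 had 40969168. Cardiomyocyte markers were high, and the 9 with a row summed to between 42497 and 75428 CPM (counts scaled by TMM-adjusted library totals) in each library. The 6 skeletal muscle markers with a row were mixed. MYH1 and MYH4, myosins of fast skeletal muscle, had a median of 0 CPM, and TNNT3 and ACTN3 medians of 0.023 and 0.037 CPM. CKM and TNNT1, on the same list, had medians of 8100 and 659 CPM.

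The 38 members together took between 2.65% and 3.52% of all counts in each library. The summed level of the 8 enzymes from triose phosphate to pyruvate ranged from 12151 CPM in vehicle control 3 to 20424 CPM in vehicle control 2. The summed level of the 13 TCA cycle genes ranged from 4324 CPM in vehicle control 1 to 7563 CPM in multidose 3. In both steps the 3 dosing groups overlapped. The sum over the 3 lactate dehydrogenases was 430 to 626 CPM in the 5 M1 libraries and 101 to 339 CPM in the other 12, with no overlap.

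**Figure D1:**
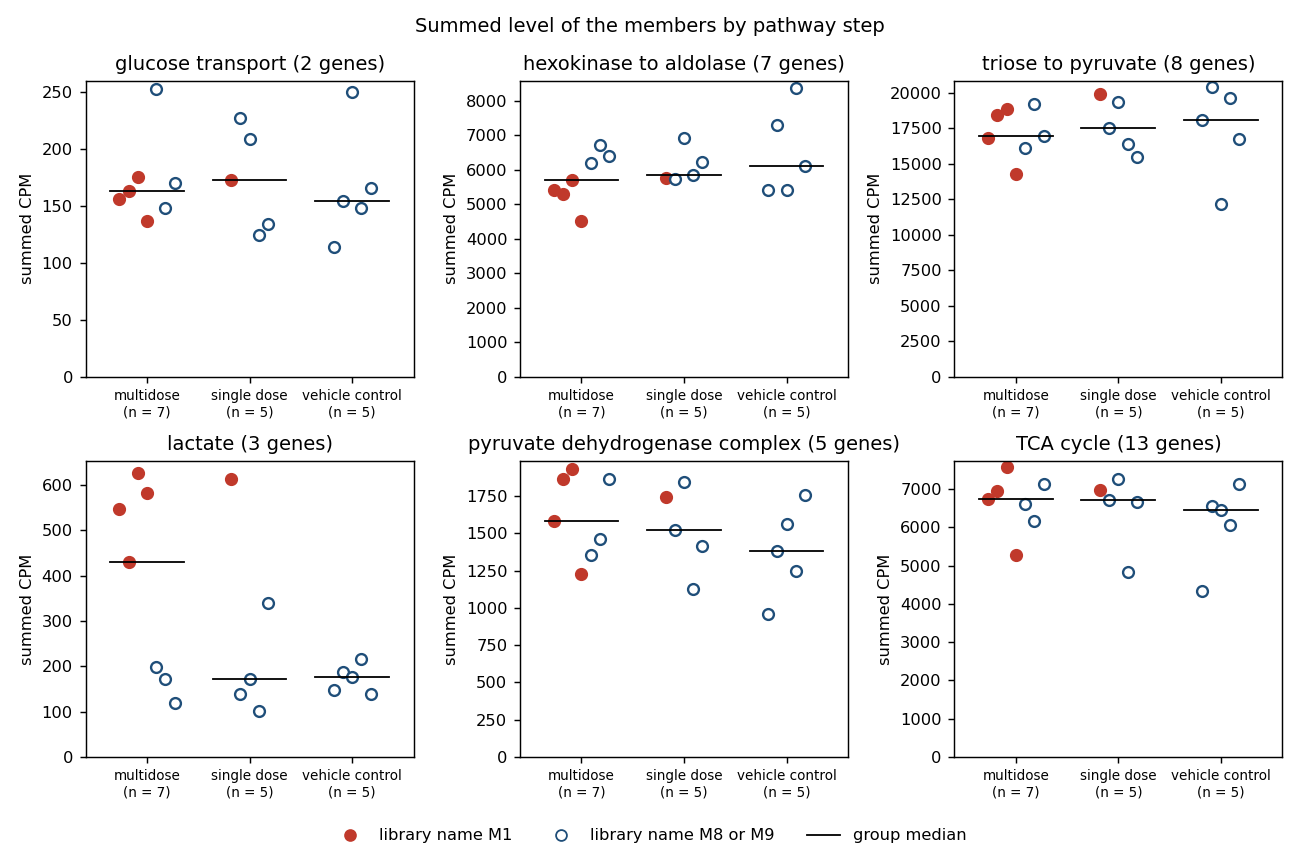
Summed CPM of the members at each of 6 pathway steps (vertical axis, linear from 0) in each library, by dosing group; filled points are M1 libraries, open points M8 or M9 libraries, and lines are group medians. Only in the lactate panel do the M1 libraries (430 to 626 CPM) lie apart from all others (101 to 339 CPM), while vehicle control 1 is the lowest point of the TCA cycle panel at 4324 CPM.

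Most members varied little among animals of one group. The SD of log2 CPM within groups had a median of 0.30 over the members and 0.35 over all genes tested. PGK1, which makes ATP in lower glycolysis, varied least with an SD of 0.19. An SD above 0.5 was found for 3 members, LDHB at 1.51, HK2 at 1.25 and LDHD at 1.20.

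Vehicle control 1 had the lowest value of the 17 libraries in 18 of the 38 members, compared with 6.47% of all genes tested. The 38 members together took 3.42% of its counts, inside the range of 2.65% to 3.52% over all libraries. Its TMM factor of 1.18 was the highest of the 17, and a higher factor lowers every CPM of a library. The part of scaling was not tested. Its 13 TCA cycle genes summed to 4324 CPM against 4839 to 7563 CPM in the other 16 libraries, and its 5 pyruvate dehydrogenase genes to 956 CPM against 1129 to 1935 CPM. Its cardiomyocyte markers were also the lowest of the 17, at 42497 CPM against 57777 to 75428 CPM. In this bulk tissue, fewer cells of a type and less RNA per cell cannot be told apart. Multidose 4 held the lowest value in 7 of the 38 members, against 7.98% of all genes, and single dose 1 in 5, against 7.86%.

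M1 libraries were compared with M8/M9 libraries within the dosing groups, because the names cut across dosing. The 2 lactate dehydrogenases LDHB and LDHD were higher in M1 libraries, and 4 enzymes of upper glycolysis, HK1, HK2, PFKL and PFKP, were lower. No glucose transporter (0 of 2), no enzyme from triose phosphate to pyruvate (0 of 8), no pyruvate dehydrogenase gene (0 of 5) and no TCA cycle gene (0 of 13) passed the threshold of 0.05 on the adjusted p of edgeR's quasi-likelihood test. These step counts depended on the tool and its settings. Limma-voom, run with quality weights for libraries, called 4553 genes and 15 members. The 15 were these 6 and PFKM, PGAM1, ENO1, PDHB, PDHX, IDH3B, OGDH, SUCLG1 and SUCLG2. DESeq2 called the 6 and SUCLG1. The 6 members called made up 15.8% of the 38, close to the 14% called among all 15884 genes (2220 genes, of which 940 or 5.92% were higher and 1280 or 8.06% lower). At an unadjusted p under 0.05 there were 11 members (28.9%), against 29.9% of all genes. A positive log2 fold change was found for 20 of 38 members and for 48.6% of all genes, with medians of 0.03 and -0.01. Since every control is an M8/M9 library, the names could be compared only within multidose (4 against 3 libraries) and single dose (1 against 4).

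LDHB, whose enzyme interconverts lactate and pyruvate, measured 271, 305, 492 and 491 CPM in multidose 1 to 4 and 470 CPM in single dose 1. In the M8/M9 libraries of the dosed groups it measured 43.0, 29.6 and 39.9 CPM in multidose 5 to 7 and 41.2, 43.3, 37.6 and 212 CPM in single dose 2 to 5. The controls measured 16.996, 40.4, 27.4, 26.8 and 32.4 CPM. All M1 libraries were above all others, and single dose 5 was the only M8/M9 library above 100 CPM among the 12. The log2 fold change was 3.12 (SE 0.45), an 8.68-fold difference, with an adjusted p of 0.00128 by edgeR. RefSeq lists LDHB at 2 loci of Sscrofa11.1, of 20287 bases on chromosome 5 (51810932 to 51831218) and of 1280 bases on chromosome 2 (12988754 to 12990033). The table has 1 row with this symbol and no coordinates, so which locus was counted, and how reads that fit both were assigned, is uncertain, and LDHB values are uncertain to that extent.

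LDHD (chromosome 6, 12548098 to 12552237), the mitochondrial enzyme that oxidises D-lactate, measured 20.5, 7.80, 17.4 and 8.73 CPM in multidose 1 to 4 and 10.4 CPM in single dose 1. The 7 dosed M8/M9 libraries measured between 1.42 and 4.33 CPM, and the controls 0.963, 2.74, 3.38, 0.919 and 2.73 CPM. The M1 libraries were again all above the others. The log2 fold change was 2.32 (SE 0.40) with an adjusted p of 0.00305 by edgeR. LDHA, the subunit typical of skeletal muscle, measured 254, 117.6, 116.9 and 82.8 CPM in multidose 1 to 4 and 132 CPM in single dose 1, inside the range of 61.2 to 187 CPM of the M8/M9 libraries except for multidose 1. Its log2 fold change of 0.27 (SE 0.28) did not pass, with an adjusted p of 0.546 by edgeR.

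HK2 (chromosome 3, 68155656 to 68231187), the insulin-responsive hexokinase of muscle, measured 9.02, 19.9, 13.0 and 5.36 CPM in multidose 1 to 4 and 15.4 CPM in single dose 1. The remaining multidose libraries measured 55.9, 112 and 67.0 CPM, and single dose 2 to 5 measured 36.8, 58.0, 73.7 and 18.5 CPM. Within each dosing group every M1 library was below every M8/M9 library, while the controls, at 17.9, 58.8, 48.7, 54.1 and 41.9 CPM, overlapped the M1 range through vehicle control 1. The log2 fold change was -2.35 (SE 0.43) with an adjusted p of 0.00396 by edgeR.

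HK1 (chromosome 14, 72383328 to 72460927), the hexokinase found in most tissues, measured 341, 330, 314 and 238 CPM in multidose 1 to 4 and 337 CPM in single dose 1. Multidose 5 to 7 measured 488, 533 and 493 CPM, single dose 2 to 5 measured 399, 488, 487 and 354 CPM, and the controls 310, 511, 633, 441 and 426 CPM. The M1 libraries lay below all dosed M8/M9 libraries but overlapped vehicle control 1. The log2 fold change was -0.60 (SE 0.17) with an adjusted p of 0.0270 by edgeR. The HK1 call was lost when multidose 3, 4, 5 or 6 or single dose 1 was left out, with adjusted p between 0.0545 and 0.0748.

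PFKL (chromosome 13, 207167287 to 207191688) and PFKP (chromosome 10, 67022652 to 67082336) encode the liver and platelet forms of phosphofructokinase, which commits sugar to glycolysis. PFKL measured 96.6, 94.6, 98.1 and 83.9 CPM in multidose 1 to 4 and 66.8 CPM in single dose 1. Multidose 5 to 7 measured 151, 154 and 138 CPM, single dose 2 to 5 measured 103, 131, 136 and 151 CPM, and the controls 109, 148, 159, 149 and 138 CPM. All M1 libraries were below all others in PFKL, with a log2 fold change of -0.76 (SE 0.13) and an adjusted p of 0.00263 by edgeR. PFKP measured 57.9, 60.0, 69.9 and 55.8 CPM in multidose 1 to 4 and 55.4 CPM in single dose 1. Multidose 5 to 7 measured 83.3, 89.8 and 80.7 CPM, single dose 2 to 5 measured 60.6, 82.7, 74.7 and 94.96 CPM, and the controls 66.8, 106, 97.3, 91.7 and 77.3 CPM, so the name classes overlapped. The log2 fold change of PFKP was -0.48 (SE 0.14) with an adjusted p of 0.0271 by edgeR, and this call was lost without multidose 1, 4, 5 or 6 or single dose 1 (adjusted p between 0.0518 and 0.1095).

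PFKM, the muscle form, had a log2 fold change of 0.40 (SE 0.21) in the opposite direction that did not pass (edgeR adjusted p 0.217), while limma-voom gave PFKM 0.53 with an adjusted p of 0.0251. Its levels were 769, 638, 805 and 582 CPM in multidose 1 to 4 and 824 CPM in single dose 1. Multidose 5 to 7 measured 621, 429 and 593 CPM, single dose 2 to 5 measured 556, 740, 376 and 649 CPM, and the controls 281, 466, 587, 315 and 538 CPM. The M1 range overlapped that of the other libraries.

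**Figure D2:**
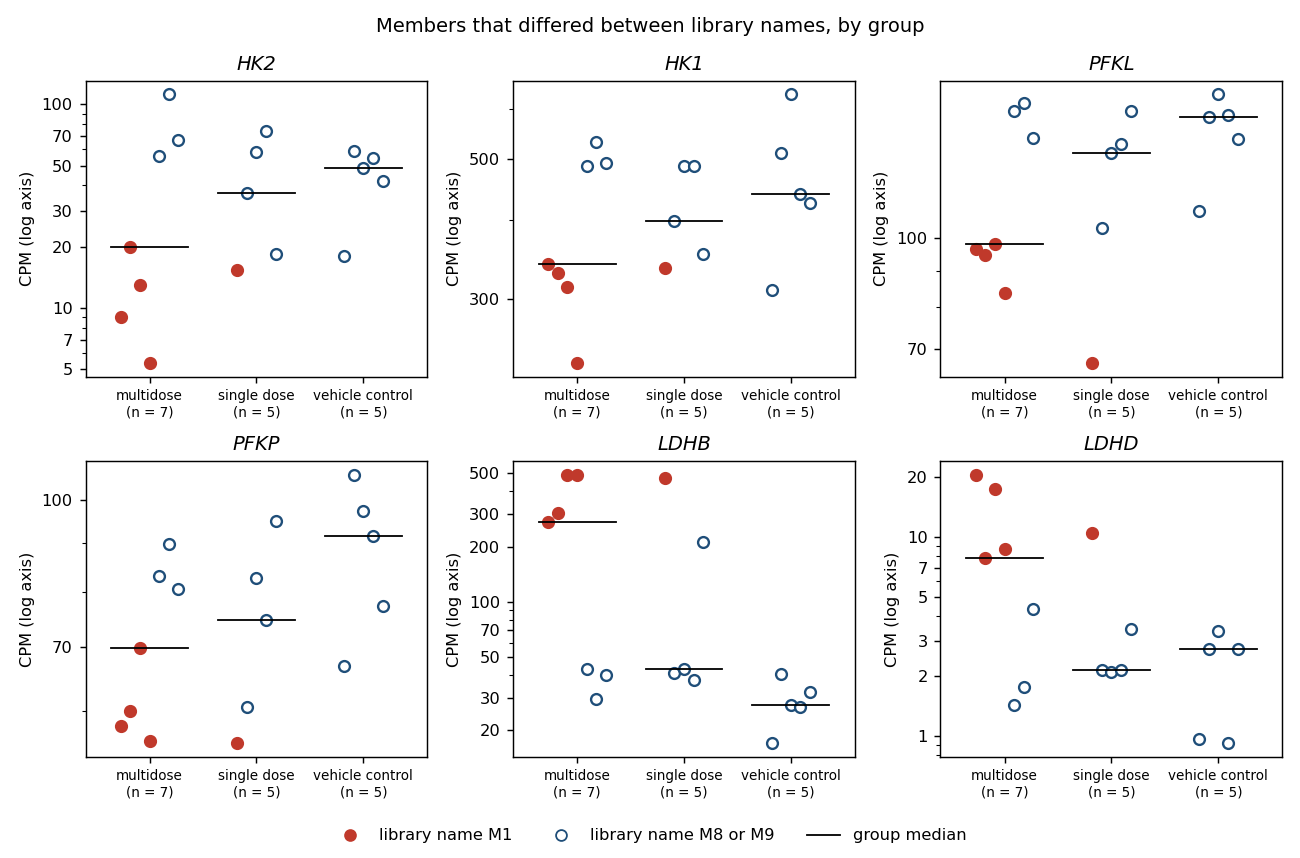
CPM of the 6 members called between library names (vertical axis, log scale) in each library, by dosing group; filled points are M1 libraries, open points M8 or M9 libraries, and lines are group medians. M1 libraries lie apart from all others for LDHB (271 to 492 CPM), LDHD (7.80 to 20.5 CPM) and PFKL (66.8 to 98.1 CPM), while single dose 5 stands above the other M8/M9 libraries for LDHB at 212 CPM.

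In CPM, 3 of the 38 members, LDHB, LDHD and PFKL, did not overlap between M1 and M8/M9 libraries, against 5.74% of all genes. SUCLG1, the shared alpha subunit of succinyl-CoA ligase, came nearest to the threshold among the other 32 members, with a log2 fold change of 0.48 (SE 0.16) and an adjusted p of 0.0512 by edgeR. Beside DESeq2 and limma-voom, SUCLG1 was called with upper-quartile scaling, with a filter of 1 CPM in 5 libraries and without robust spread. It was also called without group terms, in dosed libraries alone, and when multidose 4 or 7, single dose 5 or vehicle control 1, 3 or 4 was left out. OGDH, a component of the 2-oxoglutarate dehydrogenase complex of the TCA cycle, had a log2 fold change of -0.53 (SE 0.20, edgeR adjusted p 0.0842). The median log2 fold change was -0.48 over the 7 genes from hexokinase to aldolase, 0.23 over the 5 pyruvate dehydrogenase genes and 0.08 over the 13 TCA cycle genes. Without the 4 libraries of fewer than 25000000 counts, a setting chosen after seeing the data, multidose 4 was the only M1 library and was assumed to vary like the others. The log2 fold changes of the 6 members then kept their signs (LDHB 3.72, LDHD 1.80, HK2 -3.86, HK1 -1.08, PFKL -0.81 and PFKP -0.59), but none was called.

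**Figure D3:**
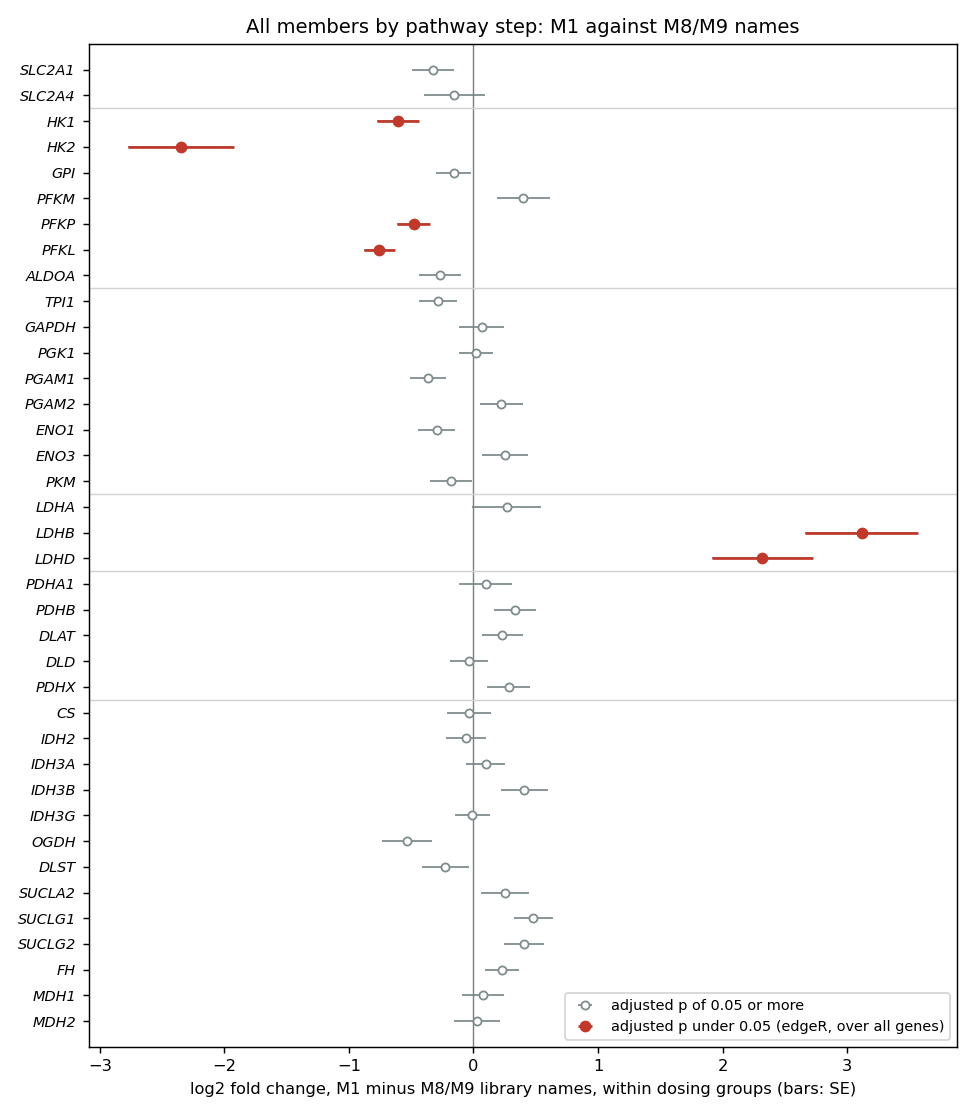
Log2 fold change of each of the 38 members, M1 minus M8/M9 libraries within dosing groups (horizontal axis), with SE as bars and grey lines between pathway steps; filled red points passed the adjusted p threshold of 0.05 over all genes. The 6 filled points are HK1, HK2, PFKP, PFKL, LDHB and LDHD, and those of the transport, triose, pyruvate dehydrogenase and TCA steps lie between -0.53 and 0.48.

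Some markers of other cell types were also called between the names, as were 14% of all genes. Of the fibroblast markers 3 of 6 were higher in M1 libraries (summed 3928 to 7105 CPM against 2361 to 5549 CPM), as were 2 of 3 Schwann and neural markers (7.46 to 13.0 CPM against 3.10 to 11.6 CPM) and 1 of 6 endothelial markers (877 to 1106 CPM against 732 to 1383 CPM). Of the atrial markers 2 of 4 were lower (93.9 to 255 CPM against 626 to 4928 CPM), as were 2 of 6 T and NK cell markers (10.1 to 17.2 CPM against 15.9 to 46.1 CPM). The upper range of the atrial sum was set by 1 gene, NPPA, at 59.6 to 4795 CPM. MYL4, SLN and NR2F2 had highest values of 70.1, 45.9 and 28.5 CPM. Of the 9 cardiomyocyte markers 0 were called (58273 to 75428 CPM against 42497 to 75288 CPM), and erythroid markers, 0 of 3 called, summed to 96.7 to 637 CPM against 25.8 to 505 CPM. Of the smooth muscle and pericyte markers 0 of 6 were called, of the macrophage markers 0 of 6, of the adipocyte markers 0 of 3 and of the skeletal muscle markers 0 of 2. The endothelial count of 1 of 6 was near the 14% of all genes. No listed marker with a row was at 0 in all libraries. Depth moved with the names as well, with a median total of 22688415 counts in M1 and 48872800 in M8/M9 libraries. When every library was thinned to the total of the shallowest, a setting chosen after seeing the data, LDHB, LDHD, HK1, HK2, PFKL and PFKP were called, as was SUCLG1. The part of other cell types in these differences was not tested.

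Count ratios of isoform pairs within a library, which do not depend on scaling between libraries, were compared for 10 pairs in 4 comparisons by exact two-sided permutation tests of log2 ratios, with Benjamini-Hochberg adjustment over the 40 tests. None had an adjusted p under 0.05, and 14 of 40 had an unadjusted p under 0.05. Between library names, 4 pairs reached the smallest p that the 175 regroupings within dosing groups allow, 0.00571 (adjusted 0.0571). The statistic was the difference of means among dosed libraries after each dosing group's mean was subtracted, and is not a plain difference between class means. It was -2.56 for LDHA/LDHB, -1.52 for HK2/HK1, 1.01 for PFKM/PFKL and 0.77 for PFKM/PFKP. Before that centring, the mean log2 PFKM/PFKP in multidose was 3.51 in M1 and 2.68 in M8/M9 libraries. LDHB made up 51.6% to 85.6% of the LDHA plus LDHB counts in the M1 libraries, 63.1% in single dose 5 (95% exact binomial interval 62.4% to 63.8%, which covers counting error only), 17.5% to 38.04% in the other dosed libraries and 11.5% to 23.8% in the controls. PFKM/PFKL and PFKM/PFKP did not overlap between the names. After the same centring, ENO3/ENO1, the muscle against the ubiquitous enolase, differed by 0.46 (exact permutation p 0.0286, adjusted 0.106). PGAM2/PGAM1, the corresponding pair of phosphoglycerate mutases, differed by 0.50 (exact permutation p 0.0114, adjusted 0.0653).

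**Figure D4:**
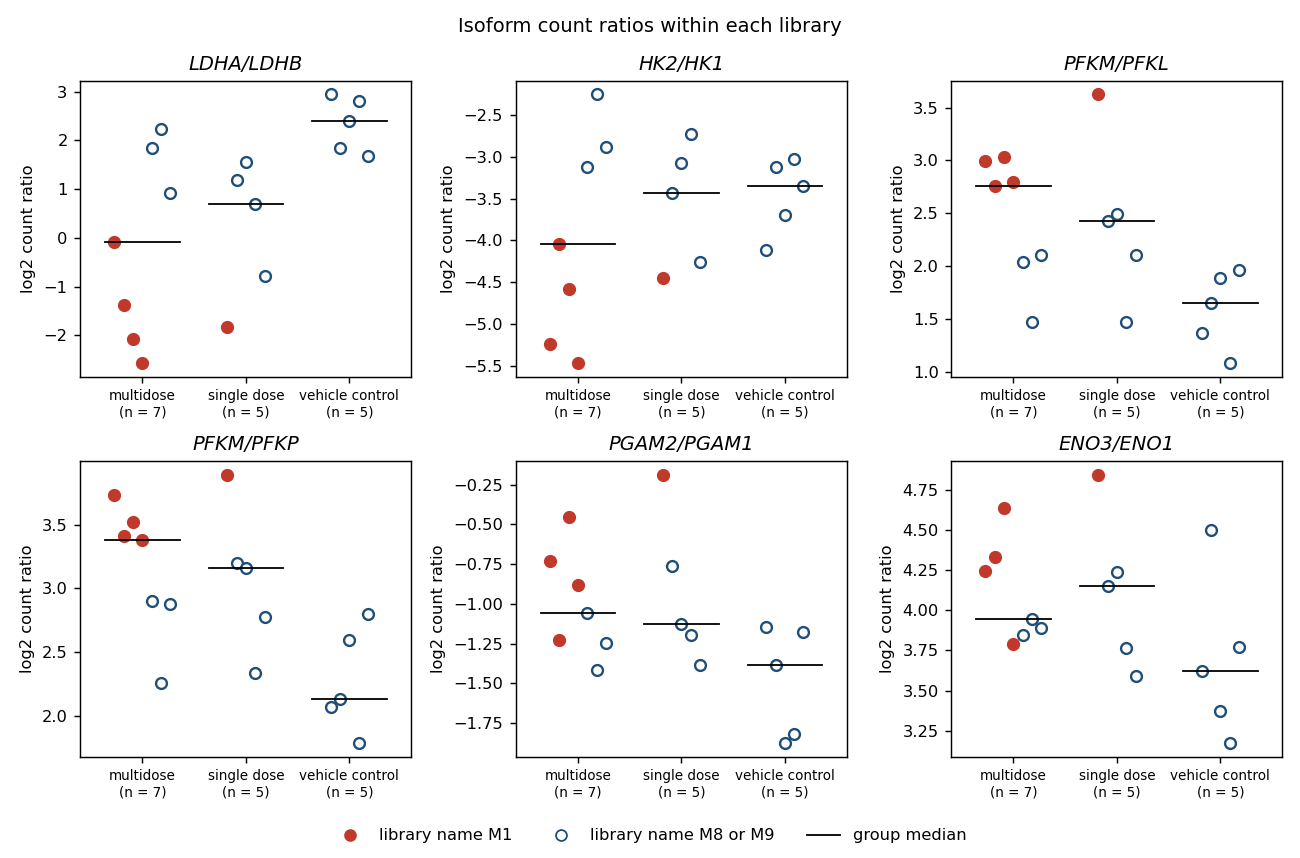
Log2 ratio of counts of 6 isoform pairs (vertical axis, not starting at 0) in each library, by dosing group; filled points are M1 libraries, open points M8 or M9 libraries, and lines are group medians. For LDHA/LDHB the M1 libraries lie between -2.57 and -0.09 and the controls between 1.68 and 2.94, with single dose 5 at -0.77.

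Dosing was the variable the study set out to compare. No member and no other gene passed the adjusted p threshold in any of the 3 dosing comparisons by edgeR's quasi-likelihood test (0 of 15884 genes, 0%). In simulated counts, 25.4%, 14.9% and 16.4% of 1.5-fold changes were recovered, and 78.8%, 86.4% and 86.4% of 4-fold changes. The order is multidose against control, single dose against control and multidose against single dose. The simulated spread was estimated with a term for M1 names, and no difference between names was simulated. The dosing fits had no such term. For genes that differ between names, recovery can therefore be lower than these shares. LDHB had an SD of 1.51 within groups and 0.68 within groups and names. Small differences, and larger ones in such genes, can have been missed. The comparisons of multidose and of single dose with vehicle control share the 5 controls, so their values are given side by side and are not independent.

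Between multidose and vehicle control, LDHB and LDHD had the largest differences of the members. At an unadjusted p under 0.05 there were 4 of 38 members (10.5%) and 12.6% of all genes (1997). LDHB had a log2 fold change of 3.05 (SE 0.85, edgeR adjusted p 0.366), from mean levels of 239 ± 206 CPM (SD, n = 7) and 28.8 ± 8.56 CPM (SD, n = 5). LDHD had 2.03 (SE 0.66, edgeR adjusted p 0.366), and PFKM 0.53 (SE 0.22, edgeR adjusted p 0.384). SLC2A1, the basal glucose transporter, had -0.38 (SE 0.17, edgeR adjusted p 0.388). A fit of the 12 M8/M9 libraries, single dose ones included, compared multidose 5 to 7 with the 5 controls. The values were 0.37 (SE 0.51) for LDHB, 0.22 (SE 0.47) for LDHD, 0.31 (SE 0.27) for PFKM and -0.25 (SE 0.21) for SLC2A1. No member there had an unadjusted p under 0.05, against 3.66% of the 16178 genes tested. DESeq2 called 8 genes and limma-voom 0, and both called 0 members; unadjusted p was under 0.05 for 6 members by DESeq2 and 8 by limma-voom.

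PFKP, whose ratio to PFKM had the smallest exact permutation p in this comparison (log2 PFKM/PFKP difference 0.88, p 0.0114, adjusted 0.0653), had a log2 fold change of -0.31 (SE 0.16, edgeR adjusted p 0.429). Among M8/M9 libraries the ratio differed by 0.40 (exact permutation p 0.196). Across the members, 24 of 38 had a positive log2 fold change, against 49.3% of all genes, and their median was 0.14 against -0.01. All 5 pyruvate dehydrogenase genes (median 0.21) and 11 of 13 TCA cycle genes (median 0.17) were positive, and 6 of the 7 genes from hexokinase to aldolase were negative (median -0.25). None of these was called, and 0 members were without overlap between the groups, against 0.271% of all genes. In the M8/M9 libraries alone 30 of 38 members were positive (median 0.11), and 5 of the 7 genes from hexokinase to aldolase were positive. Without vehicle control 1, the library low in 18 members, 20 of 38 were positive and the median was 0.04.

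Between single dose and vehicle control, LDHB and PFKM were the 2 members at an unadjusted p under 0.05 (5.26% of the members and 5.26% of all genes, 836). LDHB had a log2 fold change of 2.48 (SE 0.86, edgeR adjusted p 0.891). Among M8/M9 libraries it was 1.53 (SE 0.47, edgeR adjusted p 0.999), and when single dose 5 was also left out, a setting chosen after seeing the data, 0.49 (SE 0.22). PFKM had 0.52 (SE 0.24, edgeR adjusted p 0.891) and 0.40 (SE 0.25) in M8/M9 libraries. SLC2A1 measured 25.7, 36.3, 39.3, 32.4 and 35.6 CPM in single dose 1 to 5 and 31.3, 42.8, 56.3, 59.7 and 30.4 CPM in the controls. These overlapped, with a log2 fold change of -0.38 (SE 0.18, edgeR adjusted p 0.891). LDHA measured 132, 94.3, 127, 61.2 and 124 CPM in single dose 1 to 5 and 131, 144, 144, 187 and 104 CPM in the controls, with a log2 fold change of -0.40 (SE 0.28, edgeR adjusted p 0.891).

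The LDHA/LDHB log2 ratio was 0.17 ± 1.43 (SD, n = 5) in single dose and 2.33 ± 0.56 (SD, n = 5) in vehicle control libraries, and the groups did not overlap. The difference of -2.16 had an exact permutation p of 0.00794, the smallest that 252 regroupings allow, and an adjusted p of 0.0635. Among M8/M9 libraries the difference was -1.66 (exact permutation p 0.00794, adjusted 0.238). In multidose the mean ratio was -0.16 ± 1.91 (SD, n = 7), with a difference from control of -2.49 (exact permutation p 0.0215, adjusted 0.0954) that was -0.67 among M8/M9 libraries (exact permutation p 0.196).

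Of the members, 26 of 38 had a positive log2 fold change between single dose and control, against 50.4% of all genes, with a median of 0.11. All 5 pyruvate dehydrogenase genes and 12 of 13 TCA cycle genes were positive, with medians of 0.13 and 0.13, and none was called. Without vehicle control 1, 19 of 38 members, 3 of 5 pyruvate dehydrogenase genes and 7 of 13 TCA cycle genes were positive, and the member median was 0.00077. DESeq2 called 10 genes and limma-voom 0, both with 0 members; unadjusted p was under 0.05 for 4 members by DESeq2 and 1 by limma-voom.

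**Figure D5:**
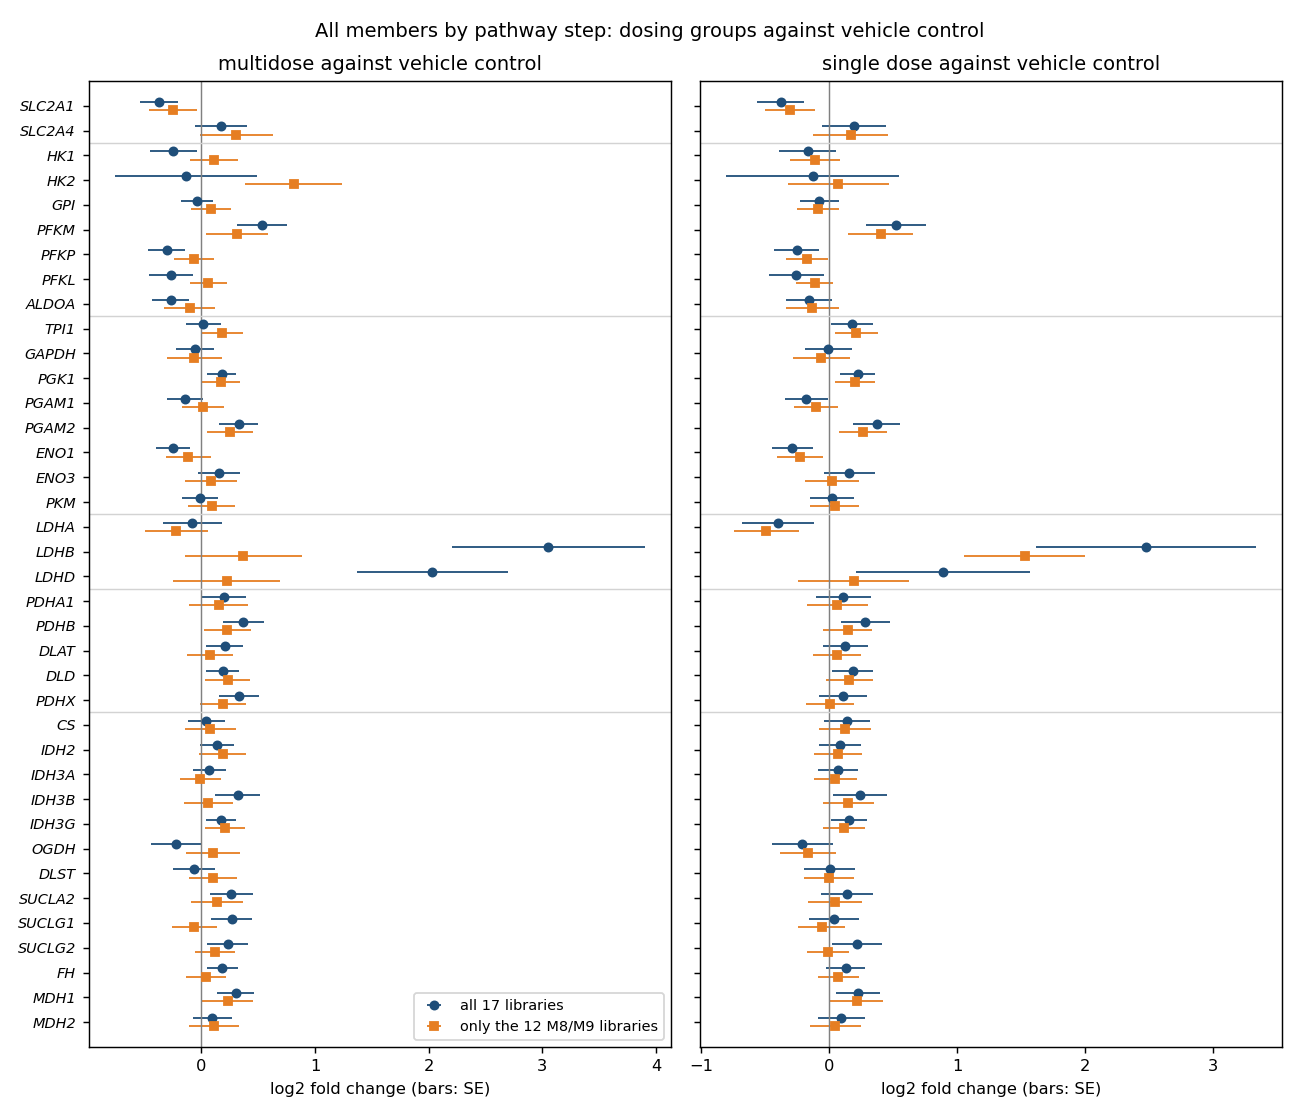
Log2 fold change of each of the 38 members against vehicle control (horizontal axis) for multidose (left) and single dose (right), with SE as bars; circles use all 17 libraries and squares the 12 M8/M9 libraries. The LDHB value is 3.05 with all libraries and 0.37 with M8/M9 libraries in multidose, and 2.48 and 1.53 in single dose, and most other members lie near 0 in both settings.

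Between multidose and single dose, 0 of 38 members had an unadjusted p under 0.05, against 2.11% of all genes (335). Positive log2 fold changes numbered 23 of 38, against 50.5% of all genes, and 0 members were without overlap, against 0.0693% of all genes. DESeq2 and limma-voom called 0 genes, with 0 and 4 members at an unadjusted p under 0.05. LDHD, PDHX and SUCLG1 had the smallest p among the members, and all had an adjusted p of 1 by edgeR. The log2 fold change of LDHD was 1.14 (SE 0.64), and 0.03 among M8/M9 libraries. Leaving out 1 library gave LDHD values of 0.78 to 1.84, the highest without single dose 1.

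PDHX, the protein that binds the E3 enzyme in the pyruvate dehydrogenase complex, measured 77.1, 86.2, 102, 60.5, 63.5, 63.2 and 83.0 CPM in multidose 1 to 7. It measured 82.1, 64.7, 69.4, 48.5 and 62.4 CPM in single dose 1 to 5, and the groups overlapped with a log2 fold change of 0.22 (SE 0.17). PDHA1, the E1 alpha subunit that carries the regulatory phosphorylation sites, ranged from 517 to 955 CPM with a median of 740 CPM in multidose and from 501 to 903 CPM with a median of 701 CPM in single dose. The ratio PDHX/PDHA1 had the smallest exact permutation p of the pairs in this comparison, 0.158 (adjusted 0.316), with a log2 difference of 0.14. SUCLG1 ranged from 451 to 821 CPM with a median of 593 CPM in multidose and from 385 to 663 CPM with a median of 518 CPM in single dose. Its log2 fold change was 0.23 (SE 0.18), and -0.0032 among M8/M9 libraries.

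Of the remaining members, GAPDH, often used as a reference gene, ranged from 6927 CPM in vehicle control 3 to 13713 CPM in vehicle control 4. Its log2 fold change was -0.06 (SE 0.17) between multidose and control, -0.01 (SE 0.18) between single dose and control and 0.07 (SE 0.18) between library names. PGK1 ranged from 204 to 361 CPM, CS, which condenses acetyl-CoA with oxaloacetate, from 415 to 878 CPM, and MDH2, mitochondrial malate dehydrogenase, from 789 to 1502 CPM. SLC2A4, the insulin-responsive glucose transporter, ranged from 82.3 CPM in vehicle control 1 to 210 CPM in multidose 5. In all of these the 3 dosing groups overlapped.

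Of 61 further genes of the same pathways, listed by role and not by how they moved, 53 were tested. SLC2A3, PGM1, SLC16A1, BSG and MPC1 had no row with that symbol, and PKLR, PFKFB1 and OGDHL were under the filter. Between library names 8 of the 53 were called (15.1%), 1 higher and 7 lower in M1 libraries, a share close to the 14% of all genes (5.92% higher and 8.06% lower). DHTKD1, a mitochondrial 2-oxoadipate dehydrogenase, was higher, with a log2 difference of 0.97 (SE 0.27, edgeR adjusted p 0.0264). SLC16A3, the lactate exporter MCT4, had a log2 difference of -1.81 (SE 0.28, edgeR adjusted p 0.00160). SLC16A3 measured 1.38 to 3.30 CPM in M1 and 3.39 to 17.02 CPM in M8/M9 libraries, without overlap. Also lower in M1 were the dicarboxylate carrier SLC25A10 (-0.70), mitochondrial PCK2 (-1.02), cytosolic aconitase ACO1 (-0.82), glycogen synthase GYS1 (-0.78) and the pyruvate dehydrogenase kinase PDK2 (-0.43). SLC16A3 and SLC25A10 were called in 17 of 17 fits that each left out 1 library, and the other 6 in 4 to 14 of 17.

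None of the 53 was called in a dosing comparison, with 8, 8 and 2 of them at an unadjusted p under 0.05 in multidose against control, single dose against control and multidose against single dose. These were 15.1%, 15.1% and 3.77% of the 53, against 12.6%, 5.26% and 2.11% of all genes. GPD1, which links glycolysis to glycerol 3-phosphate, measured 37.2, 54.9, 69.5, 56.9 and 43.9 CPM in single dose 1 to 5 and 24.9, 23.7, 33.3, 8.70 and 21.0 CPM in the controls. These did not overlap, as for 0.875% of all genes, and the log2 fold change was 1.23 (SE 0.33, edgeR adjusted p 0.876). In multidose GPD1 measured 25.9 to 86.1 CPM, with a log2 fold change of 0.93 against control (SE 0.31, edgeR adjusted p 0.366). SLC2A12, another glucose transporter, had 1.10 (SE 0.39) and PFKFB3, which makes the activator of phosphofructokinase, -0.56 (SE 0.21) between multidose and control. IDH1, the cytosolic isocitrate dehydrogenase, had 0.40 (SE 0.13) between single dose and control. PDK4, which inhibits pyruvate dehydrogenase, had -2.45 (SE 0.85, edgeR adjusted p 0.891) between single dose and control and -1.11 without vehicle control 4, where it measured 602 CPM against 42.7 to 98.8 CPM in the other controls. Between multidose and single dose, PCK2 (-0.71, SE 0.32) and PFKFB3 (-0.41, SE 0.21) were among those with the smallest p, with an adjusted p of 1 by edgeR.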

How the data were processed

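The authors deposited 1 table of raw read counts per Ensembl gene with a symbol for each row, with 1 column for each of the 17 libraries, made from total RNA isolated with TRIzol and sequenced on an Illumina NextSeq, per the labels. Per the submitters' processing notes, the tools were HISAT2 2.1.0, Subread 1.6.2, SAMtools 1.7, Trimmomatic 0.33 and FastQC 0.11.7, and the build Sscrofa11.1. For strand setting, annotation release and treatment of reads that match several places, details were not given in the sources used here, so overlapping genes cannot be told apart.

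Tests used edgeR 4.0.16 in R 4.3.3 (filterByExpr, TMM scaling, robust quasi-likelihood test, two-sided) in 1 model of the 3 groups over all 17 libraries. For library names a term for M1 was added to the groups. P-values were adjusted by Benjamini-Hochberg over all 15884 genes of a comparison, with a threshold of 0.05. CPM use TMM-scaled totals, and log2 CPM a prior count of 2. Log2 fold changes are the first group minus the second. Isoform ratios used counts plus 0.5 and exact permutation, and for library names were first centred on the mean of each dosing group. Intervals of shares are exact binomial at 95%. DESeq2 1.42.0 and limma-voom 3.58.1 with quality weights for libraries were alternatives, beside other scalings, filters, covariates and subsets of libraries. The fits were tested on simulated data.

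Members and gene lists were chosen with earlier results of these data known. Described in full are members with an adjusted p under 0.05, the 3 with the smallest p in each comparison, and the isoform pairs with the smallest p; of the other pathway genes, those called and the 3 with the smallest p, of which 2 are not reported here; SUCLG1, OGDH, GAPDH, PGK1, CS, MDH2 and SLC2A4 were also named after their values were seen. Gene positions come from RefSeq (Sscrofa11.1) by symbol.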

Additional observations from a re-analysis of the deposited data

Results flagged for a closer look

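Over the 38 members and 3 dosing groups, 15 combinations of a member and a group were found in which 1 library lay far from the others of its group by Dixon's test of the gap to its nearest neighbour. Chance gives such a gap in about 1 in 20 groups, and members measured in the same library are not independent.

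Vehicle control 1 was the low library in 6 of them, with HK2 at 17.9 CPM, GPI, which interconverts glucose and fructose phosphates, at 296 CPM, PGK1 at 204 CPM, the isocitrate dehydrogenases IDH2 at 570 CPM and IDH3A at 270 CPM, and MDH2 at 789 CPM. Single dose 4 was the low library in 5, all of the TCA cycle or the malate-aspartate shuttle, with IDH2 at 620 CPM, IDH3G at 89.2 CPM, fumarase (FH) at 170 CPM, cytosolic malate dehydrogenase (MDH1) at 624 CPM and MDH2 at 933 CPM.

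The other 4 were single values. SLC2A4 was highest in multidose 5 at 210 CPM, IDH3B highest in vehicle control 5 at 235 CPM, DLST, the E2 component of the 2-oxoglutarate dehydrogenase complex, lowest in multidose 4 at 179 CPM, and SUCLG2, the GTP-specific beta subunit of succinyl-CoA ligase, highest in single dose 1 at 231 CPM.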

How the results depend on the processing

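In the dosing comparisons 0 members were called under every alternative run. The count of genes called was 0 except for DESeq2 (8 for multidose and 10 for single dose against control), the replicate block (1 for multidose against control) and M8/M9 libraries without single dose 5 (1 for single dose against control); leaving out 1 library gave 0 to 1 for single dose against control and for multidose against single dose. Between multidose and single dose, SUCLG1 was -0.0032 in M8/M9 libraries, and PDHA1 was -0.020 without the 4 shallow libraries and -0.013 to 0.19 when 1 library was left out.

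Between library names, genes called numbered 4553 by limma-voom (8 members higher, 7 lower), 3783 without group terms (6 higher), 712 in multidose alone and 10 without the 4 shallow libraries (0 higher, 0 lower). Leaving out 1 library gave 858 to 2745 genes, with 858 without single dose 1, 1247 without multidose 6 and 1450 without multidose 5, and 2 to 4 members higher and 2 to 4 lower. LDHA, not called, was -0.036 with the name suffix as covariate, -0.29 with the replicate block and -0.56 without the 4 shallow libraries. LDHB, LDHD, HK2 and PFKL were called in 17 of 17 fits that left out 1 library. Isoform pairs with an adjusted p under 0.05 numbered 0 to 5 when 1 library was left out, with 5 without vehicle control 5. These included LDHA/LDHB, HK2/HK1, PFKM/PFKL and PFKM/PFKP between library names. That test uses dosed libraries only, so their differences and exact permutation p of 0.00571 did not change. Only the adjustment shared with the other ratio tests changed, from an adjusted p of 0.0571 to 0.0485. The causes of the other shifts were not tested.

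Libraries with the same replicate number were not paired by it. Of 15 such pairs, 4 had a correlation of deviations over 0.1 (-0.22 to 0.41), and 2 of 15 libraries correlated best with their own number. With the replicate number as a block, 11 genes were called between library names (1 member higher, LDHB, and 0 lower). Thinned libraries and the 4 shallow libraries left out were settings chosen after seeing the data. Depth limits LDHD most among the members, with 3034 counts over all 17 libraries.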
